A study of Mus musculus with 18 samples.

Results

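The germline and meiosis genes described here are 39 genes listed by symbol, out of 53672 genes counted in each library. They cover RNA-binding proteins of germ cells, regulators of entry into meiosis, parts of the synaptonemal complex and meiotic chromosome axis, meiotic cohesin, recombination factors, the piRNA pathway and other genes known from the testis. Of the 39 genes, 38 had enough counts to enter the test, which took in 18791 genes, and Spo11, which makes the double-strand breaks of meiosis, did not.

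RNA was sequenced from E14TG2a mouse embryonic stem cells (ESCs) in which both endogenous deacetylase genes, Hdac1 and Hdac2, can be deleted by adding 4-hydroxytamoxifen (OHT). All cells also carried a stably inserted transgene for Flag-tagged HDAC1, which was wild type in the HDAC1-WT line and held a single amino acid exchange in each of the other lines, HDAC1-E63R and HDAC1-Y48E. The point mutations were made to perturb the binding of HDAC1 to its corepressor complexes. Each line was sequenced untreated and 5 days after OHT was added, with 3 libraries in each of 6 groups, so that the untreated cells held endogenous HDAC1 and HDAC2 beside the transgene product and the OHT-treated cells were meant to hold the transgene product alone. Cells grew in serum with leukaemia inhibitory factor on gelatine. The sources used here do not say whether a line was 1 clone or a pool.

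Germline genes are transcribed in developing eggs and sperm and are kept low in most other cells. In ESCs many of their promoters are held back by a Polycomb-type complex that contains MGA and MAX, which read the E-box CACGTG, and E2F6, which reads the E2F motif TTCCCGC, and by DNA methylation later in development. Histone deacetylases are known partners of several such repressors.

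Promoter sequence is shown for 8 members that stand for the different outcomes below. RefSeq start sites on GRCm38.p6, the assembly also called mm10, gave a window of 300 bases (250 before the start site and 50 from it on) for 35 of the 39 genes. Where a gene had several start sites, the most upstream was taken. Each line below holds the 150 bases before the start site, read 5′ to 3′ on the strand of the gene, and capitals mark 3 motifs on either strand. The first is the E-box CACGTG. The second is the E2F motif TTCCCGC, printed in reverse complement where it lies on the other strand. The third is the T-box sequence TCACACC. No marked matches overlap. The first 3 genes had an E-box and were higher after OHT in the HDAC1-Y48E line. Stra8 and Dazl were also higher and had none of the motifs in the window. The Stra8 window, set by its RefSeq start, lies inside the GENCODE M21 gene, which starts at base 34920163. It therefore does not show the sequence before that start. Ddx4, Hormad1 and Sycp3 had both an E-box and an E2F motif and were not higher.
Slc25a31, chr3:40708721-40708870, plus strand: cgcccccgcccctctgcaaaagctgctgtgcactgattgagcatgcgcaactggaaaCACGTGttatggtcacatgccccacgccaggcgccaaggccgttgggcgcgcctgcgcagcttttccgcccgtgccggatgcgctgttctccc
Brdt, chr5:107331044-107331193, plus strand: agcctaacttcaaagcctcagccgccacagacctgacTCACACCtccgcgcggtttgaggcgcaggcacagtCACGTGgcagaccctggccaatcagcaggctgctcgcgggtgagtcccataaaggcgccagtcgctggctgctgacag
Sycp1, chr3:102936101-102936250, minus strand: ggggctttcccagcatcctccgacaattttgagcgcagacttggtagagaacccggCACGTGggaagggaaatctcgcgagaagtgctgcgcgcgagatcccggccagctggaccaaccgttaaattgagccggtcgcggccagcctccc
Stra8, chr6:34920798-34920947, plus strand: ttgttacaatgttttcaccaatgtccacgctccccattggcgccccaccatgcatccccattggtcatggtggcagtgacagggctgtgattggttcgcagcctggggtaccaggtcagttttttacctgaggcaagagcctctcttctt
Dazl, chr17:50293621-50293770, minus strand: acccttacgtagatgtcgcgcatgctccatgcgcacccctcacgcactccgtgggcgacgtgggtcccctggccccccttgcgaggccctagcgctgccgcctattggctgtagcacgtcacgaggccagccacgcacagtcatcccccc
Ddx4, chr13:112652311-112652460, minus strand: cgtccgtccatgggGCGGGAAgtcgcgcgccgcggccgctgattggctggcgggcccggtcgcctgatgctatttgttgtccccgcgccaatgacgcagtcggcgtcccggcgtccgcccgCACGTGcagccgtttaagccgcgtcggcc
Hormad1, chr3:95559527-95559676, plus strand: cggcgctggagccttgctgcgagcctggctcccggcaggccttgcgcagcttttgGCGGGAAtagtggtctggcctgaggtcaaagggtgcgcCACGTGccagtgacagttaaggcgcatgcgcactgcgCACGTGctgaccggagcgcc
Sycp3, chr10:88459437-88459586, plus strand: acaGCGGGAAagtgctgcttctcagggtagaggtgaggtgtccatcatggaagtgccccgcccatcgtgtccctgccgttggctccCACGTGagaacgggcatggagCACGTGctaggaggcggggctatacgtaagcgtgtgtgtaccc

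The motifs were counted on both strands of the 300-base windows. An E-box was present in 13 of the 35 member promoters (37.1%), beside 7.24% of the 27025 promoters in the table and 11.1% of the 11883 promoters with 10 or more CpG. The E2F motif was present in 10 member promoters (28.6%), beside 4.67% and 9.31%, and both motifs together in 6 (17.1%), beside 0.459% and 0.985%. The T-box sequence was present in 3 member promoters (8.57%, beside 3.96% of all). Among the 13 members with a window that were higher after OHT in the HDAC1-Y48E line, 3 held an E-box, 1 held an E2F motif and 9 held none of the 3 motifs. Among the 22 others, 10 held an E-box, 9 held an E2F motif and 8 held none. A match describes the letters of the window and not a bound site.

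**Figure D1:**
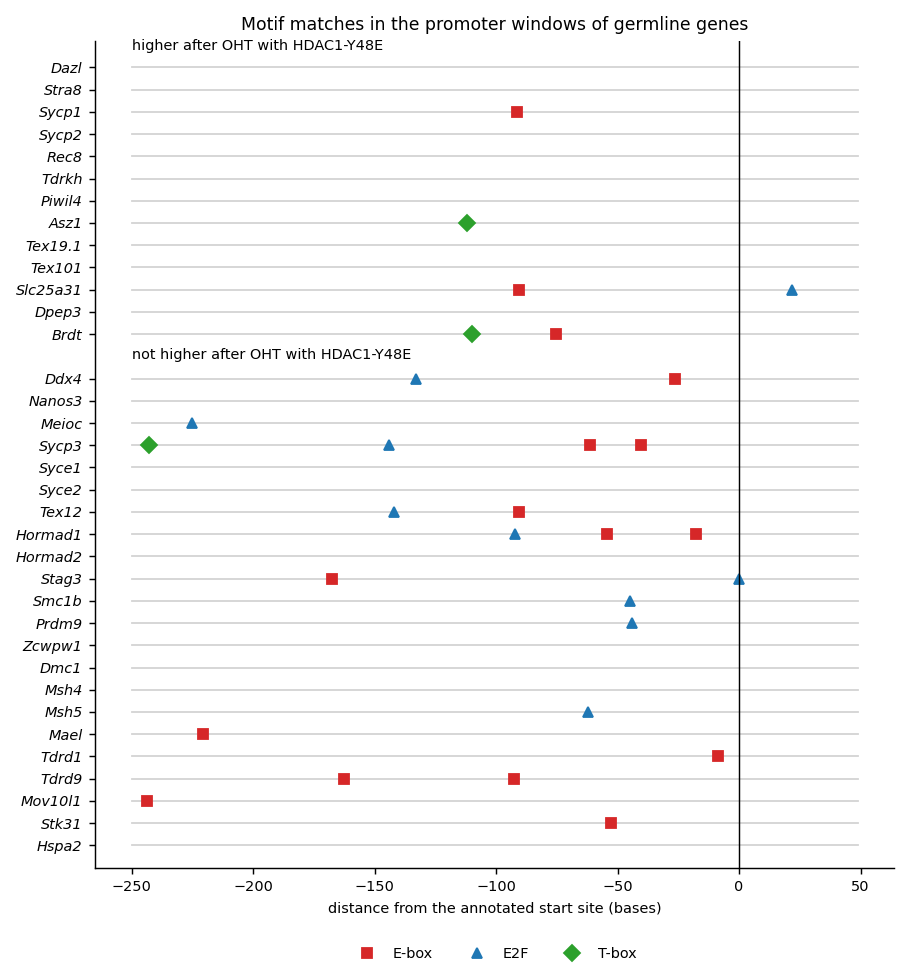
Position of each motif match (squares, E-box; triangles, E2F motif; diamonds, T-box) in bases from the annotated start site, for 35 members with a window, those higher after OHT in the HDAC1-Y48E line at the top. Matches sit in 4 of the 13 upper windows and in 14 of the 22 lower windows.

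Counts on genes ranged from 9019615 to 11454638 per library. Levels are given as CPM, the count per 1e+06 counts after scaling libraries by edgeR's TMM factors, and a gene was called when its Benjamini-Hochberg adjusted p from edgeR's quasi-likelihood test was under 0.01 and its change was over 2-fold. The largest count treated as not told from 0, 3 counts, lay between 0.248 and 0.343 CPM, and such limits cover counting error only. Replicate 3 of the untreated HDAC1-E63R cells stood apart before any test. Its chi-square per degree of freedom against the other 2 libraries of its group was 55.1 and 61.1, whereas no other pair of replicates exceeded 7.07, and its TMM factor was 0.814 against 0.955 to 1.11 elsewhere. Where a call on a member changed without it, this is stated beside the gene. Hdac1 was not called on OHT in any line (log2 values of -0.24, 0.22 and 0.14 for HDAC1-WT, HDAC1-E63R and HDAC1-Y48E) and neither was Hdac2 (-0.66, -0.21 and -0.07). Before OHT, Hdac1 was at 200 to 210 CPM with HDAC1-WT, 94.8 to 110 CPM with HDAC1-E63R and 97.8 to 104 CPM with HDAC1-Y48E. After OHT it was at 168 to 179 CPM, 112 to 131 CPM and 110 to 113 CPM in the same order. Hdac1 RNA was thus lower in both mutant lines than in the HDAC1-WT line. Its part in the differences between lines was not tested. Hdac2 was at 168 to 208 CPM before and 112 to 132 CPM after OHT with HDAC1-WT. It was at 152 to 209 CPM before and 149 to 158 CPM after with HDAC1-E63R. With HDAC1-Y48E it was at 149 to 154 CPM before and 139 to 152 CPM after. Reads of the transgene may count as Hdac1, and Hdac2 RNA was present in every line after OHT. The gene counts therefore did not show that the deletion was complete.

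Most of these genes had RNA above the counting floor in ESCs before any deletion. In the untreated HDAC1-WT cells 38 of the 39 averaged over 1 CPM. Per kilobase of exon, the median level of the 39 genes was between 5.30 and 6.48 CPM in 5 groups and 8.55 CPM in OHT-treated HDAC1-Y48E cells. Sycp3, a lateral element protein of the synaptonemal complex, had the highest level per kilobase in those 5 groups (134 CPM per kilobase in untreated HDAC1-WT cells), and Stra8, at 79.0 CPM per kilobase, had the highest in OHT-treated HDAC1-Y48E cells. Summed over the 39 genes, the libraries of OHT-treated HDAC1-Y48E cells held 1629 to 1695 CPM, above the 1078 to 1131 CPM of the untreated cells of that line. The sum was 1165 to 1324 CPM after OHT and 1409 to 1430 CPM before it in the HDAC1-WT line, and 1131 to 1174 CPM after and 1147 to 1441 CPM before it in the HDAC1-E63R line. Sycp3 shares 52.2% of its exon bases with Chpt1 on the opposite strand, and whether counting used strand is not stated, so its level is uncertain. Spo11 had 3 to 6 counts in the untreated HDAC1-WT libraries and 0 to 3 in each of the other 15.

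The first question was which of the genes changed on OHT in the HDAC1-WT line, where HDAC1-WT was meant to remain alone. Tex101, a surface glycoprotein of male germ cells, rose and Zcwpw1, a reader of the histone marks left by PRDM9, fell, while the other 36 tested members were not called. Among all tested genes 0.0373% were called higher and 0.016% lower. The median log2 fold change was -0.29 over the 38 members and 0.00 over all genes, and 27 of the 38 values were negative. All 3 treated libraries lay above all 3 untreated ones for 4 members (background 9.61%) and below them for 13 (background 9.64%). Ddx4, the germ cell RNA helicase also called VASA, went from 61.2, 57.6 and 59.6 CPM to 36.1, 36.0 and 29.8 CPM. Its groups did not overlap, and at a log2 fold change of -0.81 it passed the p limit (edgeR adjusted p = 0.00220) but not the 2-fold limit.

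On OHT in the HDAC1-E63R line, 7 members rose (background 4.74%) and 2 fell (background 1.18%), and 29 were not called. The genes that rose were Stra8, Sycp2, Tdrd9, Piwil4, Tex15, Tex19.1 and Tex101, and those that fell were Syce2 and Zcwpw1. The median log2 fold change over the 38 members was -0.07, beside 0.03 over all genes. All 3 OHT-treated libraries lay above all 3 untreated ones for 11 members (background 21.2%) and below them for 8 (background 15.7%). Without replicate 3 of the untreated cells 7 members rose and 1 fell. In the fit of only the libraries compared 4 rose and 1 fell, and Tdrd9, Piwil4, Tex15 and Syce2 were not called.

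With HDAC1-Y48E, 14 members rose (background 10.8%) and 2 fell (background 5.84%). The 14 were Dazl, Stra8, Sycp1, Sycp2, Rec8, Tdrkh, Piwil4, Asz1, Tex15, Tex19.1, Tex101, Slc25a31, Dpep3 and Brdt, and the 2 were again Syce2 and Zcwpw1. The median log2 fold change was 0.62 over the 38 members and 0.05 over all genes. All 3 treated libraries lay above all 3 untreated ones for 22 members (background 31.8%) and below them for 7 (background 27.5%). Each of the 16 calls was kept when any 1 library was left out and in the 5 other fits.

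**Figure D2:**
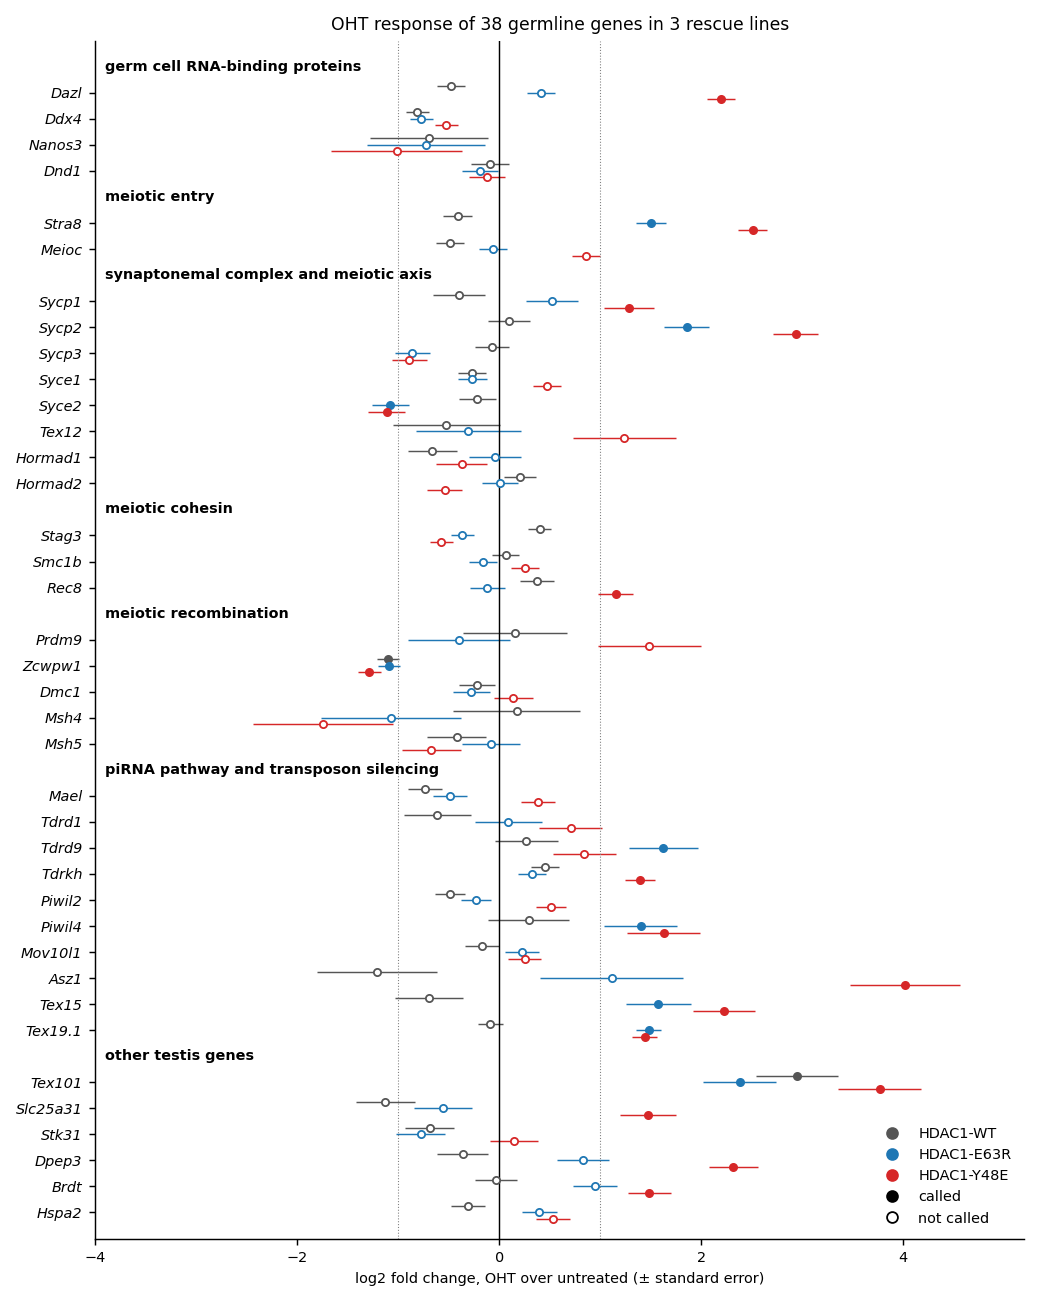
Log2 fold change of each of 38 members after OHT, with its standard error, in the HDAC1-WT (grey), HDAC1-E63R (blue) and HDAC1-Y48E (red) lines, grouped by role. Filled points were called and dotted lines mark a 2-fold change. Filled red points lie to the right for 14 genes and to the left for Syce2 and Zcwpw1.

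The HDAC1-Y48E and HDAC1-E63R responses were each measured against their own untreated cells. Of the members, 6 were called higher in both mutant lines (Stra8, Sycp2, Piwil4, Tex15, Tex19.1 and Tex101), 8 were called in the HDAC1-Y48E line and not in the HDAC1-E63R line, and Tdrd9 was called in the HDAC1-E63R line and not in the HDAC1-Y48E line. The share of all tested genes with each of these patterns was not worked out. The counts therefore do not show whether the members shared calls more often than other genes. Differences in response between lines that were called are given below, with some that were not called. The log2 fold change was called higher than in the HDAC1-WT line for 13 members with HDAC1-Y48E (background 4.65%) and 4 with HDAC1-E63R (background 1.25%). It was called lower for 0 in either (background 3.97% and 0.436%) by edgeR or DESeq2, with 25 and 15 of the 38 at an unadjusted p under 0.05 in either direction. These differences are signed, so a fall in the HDAC1-WT line also adds to them. Relative to HDAC1-E63R, the log2 fold change with HDAC1-Y48E was called higher for 5 (background 0.319%) and lower for 0 (background 0.99%) by edgeR or DESeq2, with 19 at an unadjusted p under 0.05 in either direction.

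Among the RNA-binding proteins of germ cells, Dazl rose with HDAC1-Y48E (25% of 4, beside 10.8% of all genes) and the other 3 were not called in any line. Dazl, which binds and promotes translation of germ cell mRNAs, stood at 51.9, 54.5 and 52.1 CPM in the untreated HDAC1-Y48E cells and at 238, 239 and 248 CPM after OHT. It was at 65.9, 66.5 and 49.7 CPM without and 45.9, 48.3 and 36.5 CPM with OHT in the HDAC1-WT line, and at 27.7, 36.4 and 32.8 CPM without and 47.6, 45.1 and 35.9 CPM with OHT in the HDAC1-E63R line. All 3 libraries of OHT-treated HDAC1-Y48E cells were far above the other 15. The log2 fold change was 2.20 with HDAC1-Y48E (standard error 0.14, edgeR adjusted p = 5.26e-11). The response exceeded that of the HDAC1-WT line by 2.68 and that of the HDAC1-E63R line by 1.78 on the log2 scale (edgeR adjusted p = 2.24e-09 and 7.44e-06).

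Ddx4 did not reach the 2-fold limit in any line. It went from 60.5, 54.9 and 50.8 CPM to 38.2, 35.9 and 41.5 CPM with HDAC1-Y48E and from 63.4, 73.9 and 72.8 CPM to 42.5, 41.4 and 39.1 CPM with HDAC1-E63R, with no overlap in either line (log2 fold changes of -0.52 and -0.77, edgeR adjusted p = 9.52e-04 and 4.61e-05). The difference from the HDAC1-WT response was not called for either mutant. Nanos3 and Dnd1, which protect primordial germ cells, had log2 fold changes of -1.02 and -0.12 with HDAC1-Y48E, and neither was called. Nanos3 stayed between 0.362 and 6.06 CPM in every library. Part of Dnd1 is 96.5% identical to a pseudogene over 346 bases.

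Stra8, which is induced by retinoic acid in germ cells and starts the meiotic programme, rose in both mutant lines. With HDAC1-Y48E it rose from 23.5, 29.3 and 22.3 CPM to 133, 142 and 153 CPM, and with HDAC1-E63R from 12.9, 13.7 and 19.09 CPM to 45.1, 43.3 and 40.9 CPM. In the HDAC1-WT line it was at 43.2, 41.1 and 50.5 CPM without and 33.5, 36.0 and 31.8 CPM with OHT. Both mutant lines therefore started below the HDAC1-WT line, and after OHT the HDAC1-E63R libraries lay within the range of untreated HDAC1-WT cells or just below it while the HDAC1-Y48E libraries lay above all others. The log2 fold change was 2.51 with HDAC1-Y48E (its standard error was 0.15 and edgeR adjusted p = 1.20e-11) and 1.51 with HDAC1-E63R (standard error 0.15, edgeR adjusted p = 2.51e-07). Both responses differed from that of the HDAC1-WT line, by 2.92 and 1.92 (edgeR adjusted p = 9.35e-10 and 5.67e-06). The 2 mutant responses differed by 1.00, just past the 2-fold limit (edgeR adjusted p = 0.00442), a call that held in 4 of the 12 fits that left out 1 library, those without replicate 2 of the untreated or 1 of the treated HDAC1-Y48E cells or replicate 1 or 2 of the untreated HDAC1-E63R cells. It was also lost with the replicate block, without the filter on low counts and in the fit of only the libraries compared.

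Meioc, which keeps germ cells in meiotic prophase, moved less. With HDAC1-Y48E it went from 52.1, 61.2 and 48.1 CPM to 99.3, 92.8 and 100.2 CPM (log2 fold change 0.86, edgeR adjusted p = 4.24e-05), short of 2-fold. With HDAC1-E63R it was at 48.8, 70.3 and 66.5 CPM before and 60.8, 59.8 and 56.8 CPM after OHT, which overlap. The HDAC1-WT libraries ran from 164 to 180.2 CPM before and 95.9 to 143 CPM after OHT, and the difference between the HDAC1-Y48E and HDAC1-WT responses was called (1.35, edgeR adjusted p = 3.30e-05). The mutant responses differed by a called amount only without replicate 1 of the untreated HDAC1-E63R cells (1.06) or replicate 2 of the untreated HDAC1-Y48E cells (1.02).

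The synaptonemal complex zips homologous chromosomes together, and its 8 members here went in different directions. In the HDAC1-Y48E line Sycp1 and Sycp2 rose, Syce2 fell and 5 were not called (25% and 12.5%, beside 10.8% and 5.84% of all genes). In the HDAC1-E63R line Sycp2 rose, Syce2 fell and 6 were not called (12.5% each, beside 4.74% and 1.18% of all genes). Sycp2, an axis protein that partners SYCP3, went from 8.24, 6.37 and 4.20 CPM to 44.0, 51.4 and 48.4 CPM with HDAC1-Y48E and from 5.45, 7.67 and 5.26 CPM to 21.2, 21.9 and 23.2 CPM with HDAC1-E63R. The treated libraries lay above the untreated ones in both lines, and those of HDAC1-Y48E above all other 15 libraries. In the HDAC1-WT line it was at 13.9, 17.1 and 15.0 CPM and at 17.0, 20.4 and 11.8 CPM. The log2 fold changes were 2.94 (standard error 0.23, edgeR adjusted p = 1.01e-09) and 1.85 (standard error 0.22, edgeR adjusted p = 3.54e-06), and both differed from the HDAC1-WT response (by 2.84 and 1.76, edgeR adjusted p = 6.03e-07 and 0.00110). The mutant lines differed from each other by 1.08 (edgeR adjusted p = 0.0475), which was not called except without the library that stood apart (1.17).

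Sycp1, the transverse filament that bridges the paired axes, rose with HDAC1-Y48E from 13.1, 12.2 and 15.2 CPM to 34.3, 32.6 and 31.7 CPM, above every other library (log2 fold change 1.29 with a standard error of 0.25, edgeR adjusted p = 2.12e-04). It was at 6.93, 12.5 and 5.83 CPM before and 10.001, 13.3 and 13.0 CPM after OHT with HDAC1-E63R, where the groups overlap. The difference from the HDAC1-WT response was 1.68 (edgeR adjusted p = 0.00154). Tex12, a central element protein, reached 3.71, 4.52 and 5.12 CPM from 2.31, 2.16 and 1.18 CPM, and was not called (edgeR adjusted p = 0.0540).

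Syce2, also of the central element, fell with HDAC1-Y48E from 133, 122 and 119.8 CPM to 61.4, 56.1 and 55.2 CPM (log2 fold change -1.12 with a standard error of 0.18, edgeR adjusted p = 4.33e-05). With HDAC1-E63R it went from 146, 123 and 251 CPM to 85.3, 75.8 and 85.1 CPM (log2 fold change -1.08, edgeR adjusted p = 1.73e-04). The value of 251 CPM is that of the library that stood apart, and without it the log2 fold change was -0.72 and the call was lost. Treated and untreated libraries did not overlap in either line. In the HDAC1-WT line it ran from 44.9 to 68.4 CPM without and 48.4 to 52.5 CPM with OHT, so the untreated mutant lines were high and OHT brought the HDAC1-Y48E cells to the HDAC1-WT range.

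Sycp3 passed the p limit but not the 2-fold limit in both mutant lines. It went from 124, 97.6 and 113 CPM to 62.2, 56.5 and 61.3 CPM with HDAC1-Y48E (log2 fold change -0.89, edgeR adjusted p = 2.55e-04) and from 123, 152 and 253 CPM to 100.01, 99.2 and 91.4 CPM with HDAC1-E63R (-0.86, edgeR adjusted p = 7.70e-04). The value of 253 CPM is that of the library that stood apart, and without it the HDAC1-E63R log2 fold change was -0.50. Without replicate 1 of the untreated HDAC1-E63R cells it was -1.06 and was called. Syce1, another central element protein, had a log2 fold change of 0.47 with HDAC1-Y48E (edgeR adjusted p = 0.00779). The axis proteins Hormad1 and Hormad2 had log2 fold changes of -0.37 and -0.54 in that line and -0.04 and 0.01 with HDAC1-E63R, and none of these was called. Without the library that stood apart the Hormad1 response in the HDAC1-E63R line was 0.45, and it was called against that of the HDAC1-WT line (1.11). Part of Hormad1 is 97.7% identical to Gm15529 over 922 bases.

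The meiotic cohesin genes encode subunits of the ring that holds sister chromatids together. Rec8, its meiotic kleisin, rose with HDAC1-Y48E from 23.7, 29.8 and 24.7 CPM to 58.5, 58.1 and 57.4 CPM, above every other library (log2 fold change 1.15 with a standard error of 0.17, edgeR adjusted p = 1.24e-05). With HDAC1-E63R it was at 26.7, 30.9 and 34.7 CPM before and 28.3, 32.4 and 24.2 CPM after, and the responses of the mutant lines differed by 1.27 (edgeR adjusted p = 0.00274). That difference was called in 9 of 12 fits that left out 1 library, and not without replicate 1 or 3 of the untreated HDAC1-Y48E cells or replicate 3 of the treated HDAC1-E63R cells. The difference from the HDAC1-WT response (0.78, edgeR adjusted p = 0.0238) was not called. Stag3, a cohesin subunit that binds the ring, went with HDAC1-Y48E from 156, 167 and 145 CPM to 109, 104 and 101 CPM, without reaching 2-fold (log2 fold change -0.58, edgeR adjusted p = 3.13e-04). With HDAC1-WT it went from 123, 134 and 145 CPM to 175, 172 and 184 CPM and was not called. The mutant responses differed from this by -0.98 with HDAC1-Y48E and -0.77 with HDAC1-E63R (edgeR adjusted p = 1.23e-04 and 0.00512). Neither was called, but the first was called lower without replicate 3 of the untreated HDAC1-WT cells, or replicate 3 of the untreated or 1 of the treated HDAC1-Y48E cells. Smc1b was not called with HDAC1-Y48E (0.26).

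No recombination gene was called higher in any line by edgeR's fit over all groups or by DESeq2. Zcwpw1 fell in all 3 lines. It went from 88.1, 76.3 and 73.6 CPM to 36.3, 38.7 and 35.7 CPM with HDAC1-WT, from 61.4, 68.0 and 67.3 CPM to 31.7, 30.8 and 29.9 CPM with HDAC1-E63R, and from 61.9, 56.6 and 56.7 CPM to 22.8, 23.0 and 25.9 CPM with HDAC1-Y48E. Each treated library was below each untreated one. The log2 fold changes were -1.10, -1.09 and -1.29 (each with a standard error of 0.11, edgeR adjusted p = 1.04e-05, 3.90e-07 and 7.40e-09). The mutant responses differed from the HDAC1-WT response by -0.18 for HDAC1-Y48E and 0.02 for HDAC1-E63R, each with a standard error of 0.16, and neither was called. Zcwpw1 shares 8.22% of its exon bases with Pilra on the opposite strand.

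The other recombination genes were low or did not pass. Prdm9, the methyltransferase that places recombination hotspots, had 5.31, 5.52 and 6.82 CPM in OHT-treated HDAC1-Y48E cells against 3.96, 1.25 and 1.08 CPM untreated, and was not called (log2 fold change 1.49, edgeR adjusted p = 0.0215). It was called higher in the fit of only the libraries compared (1.47) and without replicate 1 of the untreated HDAC1-Y48E cells (2.33). Msh4, which stabilises crossover intermediates with Msh5, had 1.60, 0.814 and 0.898 CPM against 3.63, 3.18 and 4.30 CPM (log2 fold change -1.74, edgeR adjusted p = 0.0466), and was called lower without the filter on low counts and in the fit of only the libraries compared (-1.74 and -1.76). Msh5 had a log2 fold change of -0.67 and the strand exchange protein gene Dmc1 one of 0.14. In 1 library of OHT-treated HDAC1-E63R cells Msh4 had 0 counts.

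The piRNA pathway silences transposons in the male germline, and 10 of the genes belong to it or to transposon silencing more widely. With HDAC1-Y48E all 10 had positive log2 fold changes, with a median of 1.12, and 5 rose (Tdrkh, Piwil4, Asz1, Tex15 and Tex19.1), beside 10.8% of all genes tested. With HDAC1-E63R 8 of the 10 were positive, with a median of 0.72, and 4 rose (Tdrd9, Piwil4, Tex15 and Tex19.1), beside 4.74% of all genes. Of these 4, only Tex19.1 was also called in the fit of only the libraries compared. With HDAC1-WT 3 of the 10 were positive, with a median of -0.33, and 0 were called (0 of 10 also by DESeq2, 4 of 10 at an unadjusted p under 0.05 by edgeR).

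Asz1, a scaffold of the piRNA machinery at mitochondria, had the largest log2 fold change of any tested member in any line. It went from 0.989, 1.48 and 0.430 CPM to 14.02, 16.5 and 16.7 CPM with HDAC1-Y48E (log2 fold change 4.02 with a standard error of 0.55, edgeR adjusted p = 3.87e-06), and the other 15 libraries ran from 0 to 1.901 CPM. The difference from the HDAC1-WT response was 5.23 (edgeR adjusted p = 5.47e-05). The HDAC1-E63R libraries had 0.369, 0.677 and 0 CPM before and 0.331, 1.05 and 0.977 CPM after OHT, close to the counting floor, and the difference between mutant responses was not called (2.90, edgeR adjusted p = 0.0802) except without the library that stood apart, which had 0 counts (3.44).

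Tex15, which links piRNAs to transposon DNA methylation, rose with HDAC1-Y48E from 7.47, 7.28 and 13.3 CPM to 43.9, 39.5 and 48.1 CPM and with HDAC1-E63R from 6.19, 7.56 and 2.06 CPM to 17.7, 18.6 and 11.04 CPM. The log2 fold changes were 2.23 (standard error 0.31, edgeR adjusted p = 5.28e-06) and 1.58 (standard error 0.33, edgeR adjusted p = 0.00113), the latter 1.21 without the library that stood apart. In the HDAC1-WT line it was at 6.13, 7.24 and 10.9 CPM and then at 5.48, 4.80 and 4.67 CPM. Both mutant responses differed from that one (by 2.92 and 2.27, edgeR adjusted p = 6.31e-05 and 0.00449), the second in 6 of 12 fits that left out 1 library. It was lost in the fit of only the libraries compared, without replicate 3 of the untreated or any replicate of the treated HDAC1-WT cells, or replicate 1 or 2 of the treated HDAC1-E63R cells.

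Tex19.1, which restrains retrotransposons in germ cells and is also made in ESCs, rose in both mutant lines. It went from 40.2, 50.5 and 52.0 CPM to 127, 129 and 132 CPM with HDAC1-Y48E and from 30.7, 30.1 and 37.6 CPM to 93.7, 94.1 and 86.5 CPM with HDAC1-E63R, and it stayed between 47.4 and 63.6 CPM in all 6 HDAC1-WT libraries. The log2 fold changes were 1.44 and 1.48 (standard errors 0.12 and 0.13, edgeR adjusted p = 5.25e-09 and 3.64e-08). The difference between the mutant responses was -0.04 with a standard error of 0.17, and each differed from the HDAC1-WT response (by 1.53 and 1.57, edgeR adjusted p = 1.27e-06 and 9.77e-06).

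Piwil4, the nuclear PIWI protein MIWI2, rose with HDAC1-Y48E from 4.17, 1.93 and 1.72 CPM to 8.41, 9.05 and 6.82 CPM (log2 fold change 1.63 with a standard error of 0.36, edgeR adjusted p = 9.17e-04). With HDAC1-E63R it went from 2.31, 2.82 and 2.06 CPM to 6.36, 5.90 and 6.74 CPM (1.40, standard error 0.36, edgeR adjusted p = 0.00694). Groups did not overlap in either line, but the HDAC1-E63R call was lost in all 6 fits that left out 1 library. No difference in response between lines was called for Piwil4. Its relative Piwil2 was at 39.7, 45.4 and 36.3 CPM before and 52.7, 61.8 and 58.4 CPM after OHT with HDAC1-Y48E (0.51, edgeR adjusted p = 0.00779), and its response exceeded that of HDAC1-WT by 1.00 (edgeR adjusted p = 0.00137), a call kept in 4 of 12 fits that left out 1 library, those without replicate 1 of the untreated or treated HDAC1-WT cells, replicate 2 of the untreated or replicate 1 of the treated HDAC1-Y48E cells. It was also lost in the fit of only the libraries compared.

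Tdrkh, which anchors PIWI proteins to mitochondria, rose with HDAC1-Y48E from 17.1, 19.22 and 16.1 CPM to 38.96, 53.5 and 45.4 CPM (log2 fold change 1.40 with a standard error of 0.15, edgeR adjusted p = 9.61e-08). Its untreated level was lower than in the HDAC1-WT line (29.5, 26.7 and 35.2 CPM), where OHT-treated libraries had 45.4, 43.2 and 36.5 CPM. The treated libraries of the 2 lines thus overlapped. The difference between the HDAC1-Y48E and HDAC1-WT responses was not called in the fit over all groups. It was called (1.00 to 1.04) without replicate 2 of the untreated or 1 of the treated cells of either line. The HDAC1-E63R line had 30.0, 30.0 and 30.2 CPM before and 36.2, 37.96 and 38.8 CPM after OHT, and the mutant responses differed by 1.07 (edgeR adjusted p = 0.00226, called in 10 of 12 fits that left out 1 library, and not without replicate 3 of the untreated or 2 of the treated HDAC1-Y48E cells). Tdrkh shares 36.7% of its exon bases with Oaz3 on the opposite strand, so its counts may hold reads of both.

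Tdrd9, an RNA helicase of the pathway, rose with HDAC1-E63R from 1.94, 1.02 and 1.03 CPM to 3.97, 4.47 and 4.10 CPM (log2 fold change 1.63 with a standard error of 0.34, edgeR adjusted p = 0.00142). With HDAC1-Y48E it went from 4.06, 3.75 and 3.55 CPM to 6.61, 7.51 and 6.28 CPM (0.84, edgeR adjusted p = 0.0320). The difference between these responses was not called (-0.78, edgeR adjusted p = 0.391), nor was that between HDAC1-E63R and HDAC1-WT. The treated HDAC1-E63R cells lay within the untreated HDAC1-WT range of 3.35 to 4.69 CPM. Of the remaining 3, Mael was at 18.3, 24.1 and 27.4 CPM before and 26.0, 31.0 and 34.1 CPM after OHT with HDAC1-Y48E and at 39.9, 34.4 and 30.0 CPM before and 22.1, 22.9 and 17.6 CPM after with HDAC1-WT. Neither change was called and the difference between them was (1.12, edgeR adjusted p = 0.00153), except without replicate 1 of the untreated HDAC1-Y48E cells. Tdrd1 and Mov10l1 had log2 fold changes of 0.71 and 0.25 with HDAC1-Y48E and were not called.

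Of the other testis genes, Tex101, Slc25a31, Dpep3 and Brdt rose with HDAC1-Y48E and Tex101 alone rose in the other lines. With HDAC1-Y48E that was 66.7% of the 6 tested, beside 10.8% of all genes. It was 16.7% with HDAC1-E63R and with HDAC1-WT, beside 4.74% and 0.0373%. Tex101 went from 2.97, 4.71 and 1.30 CPM to 23.6, 30.3 and 16.4 CPM with HDAC1-WT, from 5.54, 8.24 and 12.6 CPM to 46.9, 43.3 and 46.0 CPM with HDAC1-E63R, and from 0.659, 4.44 and 4.20 CPM to 32.5, 42.9 and 51.1 CPM with HDAC1-Y48E. Treated and untreated libraries were apart in each line. The log2 fold changes were 2.38 with HDAC1-E63R and 3.77 with HDAC1-Y48E (edgeR adjusted p = 5.58e-05 and 1.84e-07). In the HDAC1-WT line the call was kept in 3 of the 6 fits that left out 1 library, and was lost without replicates 1 or 3 of the untreated or replicate 2 of the treated cells, with the log2 fold change between 2.61 and 3.44. No difference in response between lines was called for this gene (0.82, -0.57 and 1.38 for HDAC1-Y48E against HDAC1-WT, HDAC1-E63R against HDAC1-WT and HDAC1-Y48E against HDAC1-E63R, with standard errors of 0.58, 0.54 and 0.54), except that between the mutant lines without the filter on low counts (1.37, edgeR adjusted p = 9.92e-04).

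Dpep3, a dipeptidase of the sperm surface, rose with HDAC1-Y48E from 11.6, 13.99 and 11.7 CPM to 58.4, 64.2 and 63.5 CPM, above every other library (log2 fold change 2.32 with a standard error of 0.24, edgeR adjusted p = 1.19e-07). With HDAC1-E63R it was at 4.25, 8.46 and 9.14 CPM before and 11.5, 10.8 and 16.2 CPM after, with no overlap and no call (0.83, edgeR adjusted p = 0.0217), but was called without the library that stood apart (1.03), as was its difference from the HDAC1-WT response (1.40). The HDAC1-Y48E response exceeded that of HDAC1-WT by 2.68 (edgeR adjusted p = 7.76e-06). It exceeded that of HDAC1-E63R by 1.49, which was not called (edgeR adjusted p = 0.0144) but was by DESeq2 (1.54), without the filter on low counts (1.48), and without replicate 1 or 3 of the untreated HDAC1-E63R cells (1.77 and 1.28).

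Slc25a31, the ADP/ATP carrier of sperm mitochondria, rose with HDAC1-Y48E from 8.02, 10.5 and 8.39 CPM to 24.6, 24.8 and 24.95 CPM (log2 fold change 1.47 with a standard error of 0.28, edgeR adjusted p = 1.90e-04). In the HDAC1-WT and HDAC1-E63R lines the log2 fold changes were -1.13 and -0.55 and neither was called, except the first without the filter on low counts, with 6.35, 6.79 and 2.47 CPM and 5.79, 8.56 and 6.35 CPM after OHT. The HDAC1-Y48E response differed from both, by 2.60 and 2.02 (edgeR adjusted p = 6.01e-05 and 0.00338), the second in 7 of 12 fits that left out 1 library. It was lost without replicate 1 or 3 of the untreated or 3 of the treated HDAC1-Y48E cells, or replicate 1 or 3 of the treated HDAC1-E63R cells. Brdt, the bromodomain protein that reads acetylated histones in sperm precursors, rose with HDAC1-Y48E from 7.58, 5.69 and 6.78 CPM to 19.3, 17.0 and 19.9 CPM (1.49, standard error 0.21, edgeR adjusted p = 7.16e-06). With HDAC1-E63R it went from 6.28, 5.08 and 4.80 CPM to 10.5, 10.1 and 10.6 CPM, short of 2-fold (0.94, edgeR adjusted p = 0.00291, but 1.08 and called without replicate 1 of the untreated cells), and into the HDAC1-WT range of 8.64 to 14.8 CPM. Stk31 and Hspa2 were not called in any line.

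**Figure D3:**
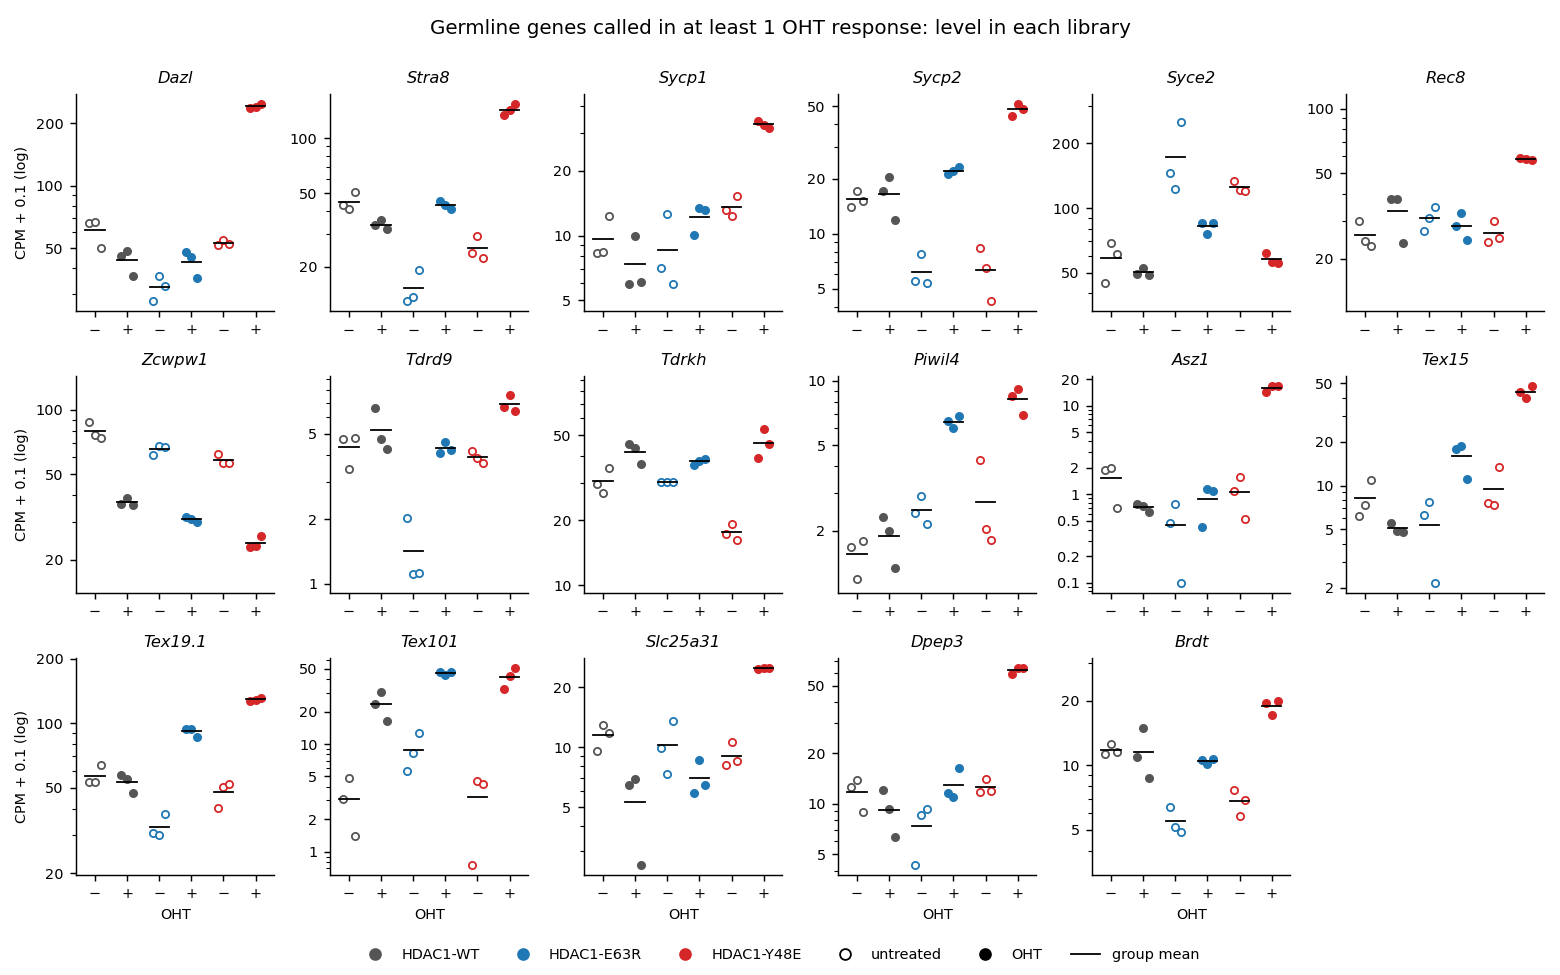
Level in each library of the 17 members called in at least 1 line after OHT, as CPM plus 0.1 on a log axis that differs between panels, for untreated (−, open) and OHT-treated (+, filled) cells, with horizontal bars at group means. The filled red points lie above every other library for Dazl, Stra8, Sycp1, Sycp2, Rec8, Piwil4, Asz1, Tex15, Tex19.1, Slc25a31, Dpep3 and Brdt, and all filled points lie below the open ones of their line for Zcwpw1.

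The 2 mutant lines were compared directly through their responses. The point lies above the line of equal response for 27 of the 38 members. For these the log2 fold change was more positive or less negative with HDAC1-Y48E. Over the 38 members the median difference was 0.58, beside 0.00 over all genes. The difference was called for Dazl, Stra8, Rec8, Tdrkh and Slc25a31. Dazl alone kept this call in each of the 12 fits that left out 1 library, and the number of members called ran from 1 to 7 over those fits. It was 1 without replicate 3 of the untreated HDAC1-Y48E cells, 2 without their replicate 1 or without replicate 3 of the OHT-treated HDAC1-E63R cells, and 3 without replicate 2 or 3 of the OHT-treated HDAC1-Y48E cells or replicate 1 of the OHT-treated HDAC1-E63R cells.

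**Figure D4:**
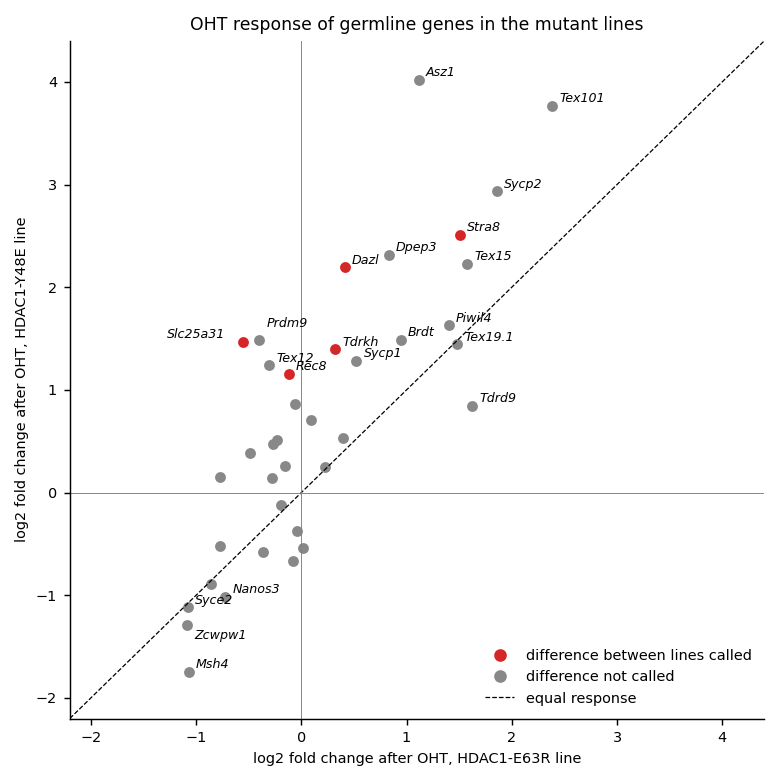
Log2 fold change after OHT in the HDAC1-E63R line (x axis) and in the HDAC1-Y48E line (y axis) for 38 members, each against the untreated cells of its line. Red points (Dazl, Stra8, Rec8, Tdrkh and Slc25a31) had a called difference between the lines, and 27 of 38 points lie above the dashed line of equal response.

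The lines already differed before OHT, when endogenous HDAC1 and HDAC2 were present beside the mutant protein. Against untreated HDAC1-WT cells, 6 members were lower (background 2.95%) and 1 higher (background 2.62%) in untreated HDAC1-Y48E cells. In untreated HDAC1-E63R cells 8 were lower (background 4.33%) and 2 higher (background 3.32%), of which Sycp2, Hormad1, Tdrd9, Brdt and Tex101 were not called in the fit of only the libraries compared. All 3 mutant libraries lay above all 3 HDAC1-WT libraries for 5 members (background 20.5%) and below them for 15 (background 19.8%) with HDAC1-Y48E, and for 7 (background 17.1%) and 14 (background 18.1%) with HDAC1-E63R. Meioc, Sycp2, Hormad1, Hormad2 and Smc1b were lower in both, and Syce2 was higher in both. Both comparisons use the same 3 HDAC1-WT libraries, and lines that were made separately may differ for reasons other than the mutation, which cannot be told apart here.

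Smc1b, the meiotic SMC subunit of cohesin, was at 115, 109 and 139 CPM in untreated HDAC1-WT cells, 55.7, 56.5 and 53.6 CPM in HDAC1-E63R cells and 41.2, 35.3 and 52.2 CPM in HDAC1-Y48E cells. OHT left it at 46.2 to 57.5 CPM in the mutant lines and 112 to 145 CPM in the HDAC1-WT line, so the lines were apart under both conditions. The log2 differences from untreated HDAC1-WT cells were -1.49 for HDAC1-Y48E and -1.13 for HDAC1-E63R (edgeR adjusted p = 8.82e-08 and 2.37e-06). Hormad2 was at 35.8 to 37.5 CPM in untreated HDAC1-WT cells, 8.49 to 11.5 CPM with HDAC1-E63R and 13.3 to 19.9 CPM with HDAC1-Y48E (log2 differences of -1.89 and -1.14 for HDAC1-E63R and HDAC1-Y48E, edgeR adjusted p = 3.99e-08 and 2.66e-05). Hormad1 was at 42.5 to 50.1 CPM, 9.59 to 23.5 CPM and 17.2 to 23.8 CPM in the same groups (-1.61 and -1.198, edgeR adjusted p = 4.64e-05 and 0.00110), and 23.5 CPM is the library that stood apart, without which the first was -2.10.

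Meioc had log2 differences of -1.66 for HDAC1-Y48E and -1.46 for HDAC1-E63R and Sycp2 of -1.29 and -1.33, from the library values given above. Stra8, Tdrd9 and Brdt were lower in untreated HDAC1-E63R cells (-1.57, -1.64 and -1.11, edgeR adjusted p = 7.32e-08, 0.00105 and 5.53e-04), and Dmc1 was lower in untreated HDAC1-Y48E cells (-1.05, edgeR adjusted p = 2.45e-04, not called without replicate 1 of the untreated HDAC1-WT cells or replicate 2 of the untreated HDAC1-Y48E cells). Syce2 was higher by 1.58 in HDAC1-E63R cells and by 1.10 in HDAC1-Y48E cells (edgeR adjusted p = 1.56e-06 and 1.38e-04), the first 1.22 without the library that stood apart and the second not called without replicate 1 of the untreated HDAC1-WT cells. Tex101 was higher in untreated HDAC1-E63R cells (1.52, edgeR adjusted p = 0.00959), a call kept in 3 of 6 fits that left out 1 library and not made by DESeq2. It was lost without replicate 1 or 3 of the untreated HDAC1-WT cells or replicate 2 of the untreated HDAC1-E63R cells.

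**Figure D5:**
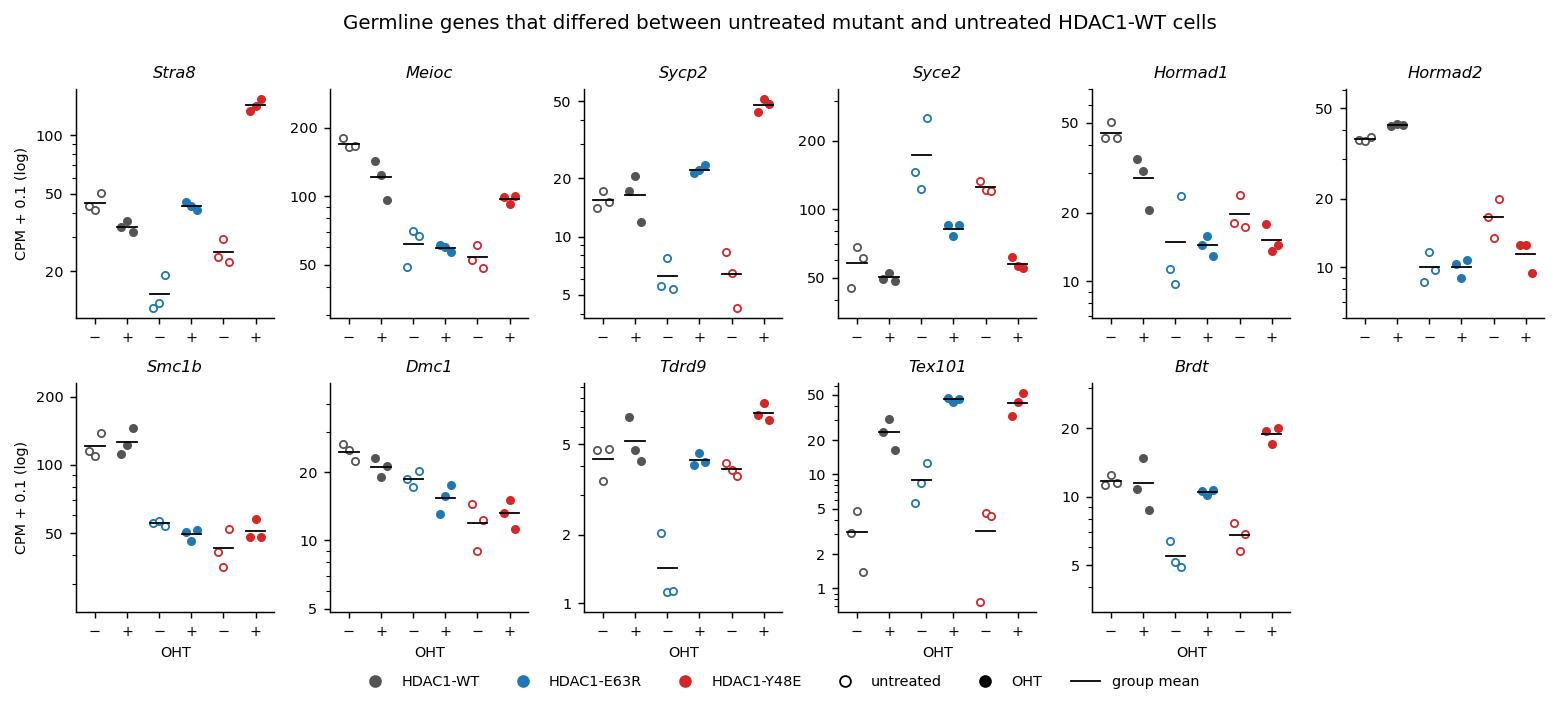
Level in each library of the 11 members that differed between untreated mutant and untreated HDAC1-WT cells, as CPM plus 0.1 on a log axis that differs between panels, with untreated (−, open) and OHT-treated (+, filled) cells and bars at group means. Smc1b and Hormad2 stay below the grey HDAC1-WT points with and without OHT in both mutant lines, and Stra8, Sycp2, Tdrd9 and Brdt start low with HDAC1-E63R and rise to the grey points or above.

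Because untreated levels differed, the OHT-treated mutant cells were also set against OHT-treated HDAC1-WT cells, a comparison added after the data were seen. In OHT-treated HDAC1-E63R cells Piwil4 and Tex15 were higher (2 of 38, background 5.93%) and Hormad2, Meioc and Smc1b lower (background 3.43%). In OHT-treated HDAC1-Y48E cells 12 members were higher (background 11%) and Hormad2, Smc1b and Sycp3 lower (background 7.23%). The 12 were Dazl, Stra8, Sycp1, Sycp2, Tdrd1, Piwil4, Asz1, Tex15, Tex19.1, Slc25a31, Stk31 and Dpep3. Of the 14 that rose on OHT within the HDAC1-Y48E line, Rec8, Tdrkh, Tex101 and Brdt were thus not called against OHT-treated HDAC1-WT cells, and of the 7 that rose within the HDAC1-E63R line Stra8, Sycp2, Tdrd9, Tex19.1 and Tex101 were not.

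Other germline genes from lists outside the 39 were described in the same fit. Of 27 tested other meiosis genes, 4 rose and 1 fell with HDAC1-Y48E (14.8% and 3.70%, beside 10.8% and 5.84% of all genes) and 1 rose with HDAC1-E63R (3.70%, beside 4.74%). They were Rec114, Ankrd31, Spata22 and Tex11, which rose by 1.76, 1.83, 2.32 and 1.02 on the log2 scale, and Tesmin at -1.25, with Rec114 also called with HDAC1-E63R (1.16), where its groups overlap. These 5 were named after their values were seen. Of 18 tested other piRNA genes, 6 rose and 3 fell with HDAC1-Y48E (33.3% and 16.7%, beside 10.8% and 5.84% of all genes). With HDAC1-E63R 4 rose and 1 fell (22.2% and 5.56%, beside 4.74% and 1.18% of all genes). Relative to HDAC1-WT, the response with HDAC1-Y48E was called higher for 3 and lower for 3 (16.7% each, beside 4.65% and 3.97%). The piRNA genes named next are among those that rose. Gtsf1, a partner of PIWI proteins, went from 4.17, 3.64 and 3.98 CPM to 35.6, 40.7 and 35.1 CPM with HDAC1-Y48E and from 2.22, 1.13 and 2.74 CPM to 11.4, 11.6 and 12.2 CPM with HDAC1-E63R (log2 fold change 2.52). Tdrd7 and Tex19.2 rose by 1.99 and 1.92 with HDAC1-E63R.

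Of 27 tested primordial germ cell and spermatogonial genes, 12 rose and 4 fell with HDAC1-Y48E (44.4% and 14.8%, beside 10.8% and 5.84% of all genes) and 7 rose with HDAC1-E63R (25.9%, beside 4.74%). Tuba3b, a testis tubulin, went from 7.36, 8.76 and 5.16 CPM to 135, 152 and 137 CPM with HDAC1-Y48E (log2 fold change 4.32). Prdm14, a regulator shared by primordial germ cells and naive ESCs, fell from 39.002, 32.3 and 31.3 CPM to 2.70, 3.89 and 3.77 CPM (log2 fold change -3.30). Tktl2 and Mageb4 rose by 3.52 and 3.25 with HDAC1-Y48E, and Usp26 and Xlr5a by 2.07 and 2.38 with HDAC1-E63R. Xlr5a belongs to a family of near-identical copies, so its counts are uncertain. Magea4 reached 4.21, 7.15 and 5.74 CPM with HDAC1-Y48E from 0.220, 0.227 and 0 CPM, which lies at or under the counting floor. In the HDAC1-WT line 0 genes of these 3 lists were called by edgeR or DESeq2, with 5 of the meiosis, 2 of the piRNA and 3 of the primordial germ cell and spermatogonial genes at an unadjusted p under 0.05 by edgeR.

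A list of 25 genes for repressors of germline genes and for enzymes that add or remove DNA methylation was described too. Of these, 20 were not called in any OHT response. With HDAC1-Y48E 12% were called higher and 8% lower, near the 10.8% and 5.84% of all genes, and with HDAC1-E63R 4% higher, beside 4.74%. The exceptions were the DNA methyltransferase genes Dnmt3a, Dnmt3b and Dnmt3l, which rose with HDAC1-Y48E by 1.81, 1.03 and 1.24 on the log2 scale, and the DNA demethylase genes Tet1 and Tet2, at -1.85 and -1.87. Dnmt3a also rose with HDAC1-E63R (1.01). The genes for MGA, MAX, E2F6 and other subunits of that complex were not called in any OHT response. Smaller shifts were common. With HDAC1-Y48E all 3 treated libraries lay above all 3 untreated ones for 6 of the 25 (background 31.8%) and below for 12 (background 27.5%). Before OHT, all 3 HDAC1-Y48E libraries lay above all 3 HDAC1-WT libraries for 17 (background 20.5%) and below for 3 (background 19.8%). Of the 25, 1 was called higher there (background 2.62%) and 2 in untreated HDAC1-E63R cells (background 3.32%).

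Markers of cell state moved with the same libraries. Of 12 ESC markers, 7 fell and 0 rose with HDAC1-Y48E (58.3% and 0%, beside 5.84% and 10.8% of all genes). Their sum went from 6705 to 6793 CPM down to 3049 to 3193 CPM, beside 6166 to 9494 CPM before and 5322 to 5626 CPM after OHT with HDAC1-E63R and 8956 to 9044 CPM before and 9329 to 10225 CPM after with HDAC1-WT. In the latter 2 lines 0 of the 12 were called by edgeR or by DESeq2, with 7 and 5 of them at an unadjusted p under 0.05 by edgeR for HDAC1-E63R and HDAC1-WT. The summed level of 13 markers of 2-cell-like cells, a rare ESC state, was 6.79 to 11.99 CPM and 2.69 to 5.98 CPM in the HDAC1-WT line without and with OHT, 83.7 to 135 CPM and 303 to 322 CPM with HDAC1-E63R, and 225 to 257 CPM and 544 to 641 CPM with HDAC1-Y48E. Of the 12 tested, 6 rose and 1 fell on OHT with HDAC1-Y48E (50% and 8.33%, beside 10.8% and 5.84% of all genes). With HDAC1-E63R 8 rose and 0 fell (66.7%, beside 4.74%). Before OHT, 12 were already called higher than in HDAC1-WT cells with HDAC1-Y48E and 11 with HDAC1-E63R (background 2.62% and 3.32%). Of 9 markers of the testis somatic cells, Sertoli and Leydig cells, 3 had enough counts to be tested and 0 were called in any OHT response. Of 9 fibroblast markers 5 were tested, of which 2 rose and 1 fell with HDAC1-Y48E (40% and 20%, beside 10.8% and 5.84% of all genes). With HDAC1-E63R 2 rose (40%, beside 4.74%), and the sum of the 9 ran from 124 to 174 CPM over all groups. The part of these cell states in the germline gene levels was not tested. In bulk RNA, more cells that express a gene and more RNA per cell cannot be told apart.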

How the data were processed

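Total RNA of 18 samples was sequenced. Per the labels and the submitters' processing notes, reads were aligned to mm10 with HISAT2 2.1.0, handled with SAMtools 1.9 and counted per gene with HTSeq. The values the authors deposited are raw counts per gene, with no normalization. The HTSeq version, its strand setting and the gene annotation are not given in the sources used here. The 5 entries that name no gene (59.4 to 61.2% of counts) were left out.

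Genes were tested with edgeR 4.0.16 (limma 3.58.1, R 4.3.3) in 1 quasi-likelihood model over all 6 groups, with TMM scaling, edgeR's filter on low counts and Benjamini-Hochberg adjustment over all 18791 tested genes. A call needed an adjusted p under 0.01 and a change over 2-fold. Differences between lines were tested as interaction terms. Alternatives were DESeq2 1.42.0, no filter, a replicate block, fits of only the libraries compared, and each library left out. The steps were tested on simulated data. Levels per kilobase used merged exon lengths of GENCODE M21.

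Library values are given for members called in at least 1 OHT response or difference between lines, and the remaining members by counts, ranges or fold changes. From other germline lists up to 5 called genes per response were named by size. Members and lists were chosen with earlier results of these data known. The labels do not say that replicates came from separate cultures, so p-values measure only the spread between these samples, which may be technical. Same-numbered libraries did not deviate together (correlations of -0.05 to 0.04), so the numbers were not treated as pairs.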

Additional observations from a re-analysis of the deposited data

Results flagged for a closer look

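The results listed here are differences between lines in the response to OHT, tested as interaction terms in edgeR's quasi-likelihood model, as log2 differences. With HDAC1-Y48E the response exceeded that with HDAC1-WT for Asz1 by 5.23, for Stra8 and Tex15 by 2.92 each, for Sycp2 by 2.84, for Dazl and Dpep3 by 2.68 each, and for Slc25a31 by 2.60. It also did so for Sycp1 by 1.68, for Tex19.1 by 1.53, for Brdt by 1.52, for Meioc by 1.35, for Mael by 1.12 and for Piwil2 by 1.00. Meioc, Mael and Piwil2 were not called within the HDAC1-Y48E line itself. With HDAC1-E63R the response exceeded that with HDAC1-WT for Tex15 by 2.27, for Stra8 by 1.92, for Sycp2 by 1.76 and for Tex19.1 by 1.57. The HDAC1-Y48E response exceeded that of HDAC1-E63R for Slc25a31 by 2.02, for Dazl by 1.78, for Rec8 by 1.27, for Tdrkh by 1.07 and for Stra8 by 1.00. The comparisons share libraries, so the same gene in several of them is not independent evidence.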

How the results depend on the processing

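None of the 66 called changes and differences of named members reversed under any alternative run, whereas values near 0 that were not called could change sign, such as Hormad1 with HDAC1-E63R (-0.04, and 0.45 without the library that stood apart). The count of members lower with HDAC1-WT went from 1 to 2 without the filter on low counts. In fits of only the libraries compared, members higher with HDAC1-E63R numbered 4, lower ones 1, and members higher and lower in untreated HDAC1-E63R cells 1 and 4, and DESeq2 also gave 1 higher there. With OHT-treated HDAC1-WT cells as reference, an alternative chosen after seeing the data, 2 members were higher with HDAC1-E63R. With the replicate block, members higher and lower numbered 1 and 1 with HDAC1-WT, 7 and 2 with HDAC1-E63R and 14 and 2 with HDAC1-Y48E, and the numbers do not pair the samples. The block changed 1 count, that of members with a higher log2 fold change with HDAC1-Y48E than HDAC1-E63R, from 5 to 4, by the loss of Stra8. When 1 library was left out, members higher and lower ranged from 0 to 1 and 1 to 1 with HDAC1-WT, 6 to 7 and 1 to 3 with HDAC1-E63R, and 14 to 15 and 2 to 2 with HDAC1-Y48E. The counts with a higher and a lower log2 fold change than HDAC1-WT ranged from 12 to 14 and 0 to 1 with HDAC1-Y48E and from 3 to 6 and 0 to 1 with HDAC1-E63R, and those of HDAC1-Y48E against HDAC1-E63R from 1 to 7 and 0 to 0. Between untreated lines they ranged from 0 to 1 and 5 to 6 for HDAC1-Y48E and from 1 to 2 and 8 to 9 for HDAC1-E63R. The cause of these shifts was not tested. Members under about 1 CPM, such as Asz1 in most libraries, are limited by counting error.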
